A study of Homo sapiens with 5 samples.

Results

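The genes described here encode the enzymes that attach palmitate or myristate to human proteins, and those that take palmitate off again. There are 32 of them: 23 palmitoyl transferases of the ZDHHC family, the 2 cytosolic thioesterases LYPLA1 and LYPLA2, 3 membrane-associated depalmitoylases of the ABHD17 family, the 2 lysosomal thioesterases PPT1 and PPT2, and the 2 N-myristoyl transferases NMT1 and NMT2. They were selected by gene name from the 58174 genes of the deposited table, as a group proposed when the differences between the study's 2 groups were already known. The fold changes and adjusted p-values below are therefore a description of these enzymes, and nothing is read from how many of them changed.

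RNA was sequenced from Ishikawa cells, an established line of human endometrial carcinoma, in 5 libraries. In 3 libraries (sh-LINC00958) the cells carried a lentiviral short hairpin RNA against LINC00958, a long intergenic non-coding RNA, and in 2 libraries (sh-NC) a negative control. Infected cells of both groups were selected with puromycin at 2.5 µg/ml, added 72 h after the lentivirus, and no other treatment is named. Which hairpin was used, and whether each group was 1 infected population or several, is not stated in the labels. They also name no separate cultures behind the replicates, so a p-value here measures the spread between samples that may be technical repeats.

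Palmitoylation joins a fatty acid to a cysteine of a protein through a thioester bond and holds the protein to a membrane. A ZDHHC enzyme first loads the acyl chain onto the cysteine of its own Asp-His-His-Cys signature, from which the family takes its name, and then passes it to the substrate. Thioesterases of the LYPLA and ABHD17 families remove it, so that proteins such as NRAS and HRAS cycle between the Golgi and the plasma membrane. Myristoylation is different: NMT1 and NMT2 place myristate on an N-terminal glycine through a stable amide bond, after a methionine aminopeptidase has exposed that glycine.

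Values are TPM, which divide by gene length, so that levels of different genes can be roughly compared. That division does not correct for base composition, or for exons and near-identical copies shared with other genes. Between 27896 and 29411 genes were above 0 in a library, mitochondrially encoded genes took 12.9 to 15.0% of the TPM, and depth is unknown in this unit. LINC00958 (chr11:12961842-12989548, GRCh38) stood at 67.2, 67.1 and 58.4 TPM in sh-LINC00958 and at 119.3 and 137.4 TPM in sh-NC. The groups did not overlap, and the targeted RNA fell by 0.99 on the log2(TPM + 1) scale (SE 0.106, limma adjusted p = 0.0119) to 50.0% of its control level. Its log2 fold change ran from -1.09 to -0.89 as 1 library was left out, and the threshold of 0.05 was passed in 2 of those 5 fits. In bulk RNA, less of a transcript per cell and fewer cells that carry it cannot be told apart. Of 10 endometrial epithelial markers 8 passed the filter on low values, led by PAX8 at means of 706 and 812 TPM, but the estrogen and progesterone receptor genes ESR1 and PGR were at or near 0 in both groups (means of at most 0.0132 TPM). These 8 markers had 4 positive and 4 negative fold changes. The keratin KRT18 rose (0.44 on the log2 scale, limma adjusted p = 0.0211), and KRT8 (0.26) and KRT19 (0.36) did not pass. The tight junction claudin CLDN4 fell, from 12.8 and 44.8 TPM in the sh-NC libraries to a mean of 3.35 TPM (SD 0.509, n = 3; limma adjusted p = 0.0335), with a log2 fold change of -2.54 that ran from -3.40 to -1.67 as 1 library was left out and passed in 1 of those 5 fits. Summed markers of other cells were low: 4.95 to 5.89 TPM for 7 fibroblast genes, almost all of it COL1A1, 4.39 to 6.90 TPM for 5 endothelial genes and 0.494 to 0.839 TPM for 6 blood cell genes, with DCN, KDR, CD3E and HBB at 0 in all libraries. Whether such cells had any part in the results below was not tested.

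The coding sequence of the catalytic signature is shown for 5 of the 6 transferases that rose or fell, because it is what makes them transferases and because their base composition, which it lets a reader see, went with the direction of change. The first 2 lines are genes that rose and the other 3 genes that fell. Each line gives 42 bases, 5′ to 3′, with the 12 bases that encode Asp-His-His-Cys in capitals and 5 codons on either side, from the longest coding transcripts in GENCODE 29 (GRCh38). ZDHHC16 lies at chr10:97446131-97457370 on the plus strand, ZDHHC8 at chr22:20129456-20148007 plus, ZDHHC17 at chr12:76763588-76853696 plus, ZDHHC20 at chr13:21372573-21459370 minus and ZDHHC21 at chr9:14611071-14693471 minus.
ZDHHC16: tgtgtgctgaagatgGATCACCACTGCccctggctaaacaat
ZDHHC8: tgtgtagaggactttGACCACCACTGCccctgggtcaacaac
ZDHHC17: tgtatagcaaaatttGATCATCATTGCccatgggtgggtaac
ZDHHC20: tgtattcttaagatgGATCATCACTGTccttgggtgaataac
ZDHHC21: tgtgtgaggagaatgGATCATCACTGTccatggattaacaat
Each of the 4 signature amino acids can be written with a codon ending in C or in T. The transcript of ZDHHC8 used C at all 4 and that of ZDHHC16 at 3. Those of ZDHHC17, ZDHHC20 and ZDHHC21 used it at 1, and ZDHHC2, whose sequence is not shown, at 0. The 15 tested transferases that did not pass the test described below ranged from 0 to 4. In 1 of them, ZDHHC13, the signature reads Asp-Gln-His-Cys, and its Gln codon, CAA, is not of that kind. Over whole coding sequences, 67.3% of codons ended in G or C in ZDHHC16 and 78.5% in ZDHHC8, against 40.3% in ZDHHC17, 42.3% in ZDHHC20, 43.6% in ZDHHC21 and 46.5% in ZDHHC2. Over the 15 others tested this share ran from 39.6 to 85.4%, a range that takes in all of these values.

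Most of the machinery was expressed in these cells. In sh-NC the most abundant members were LYPLA1 at a mean of 169.9 TPM, PPT1 at 153.1, ZDHHC20 at 115.1, ZDHHC6 at 114.3 and LYPLA2 at 101.0 TPM. LYPLA1 varied by 32.4 TPM (SD, n = 2) and ZDHHC20 by 13.6, so the order of LYPLA1 and PPT1, and that of ZDHHC20 and ZDHHC6, lies within the spread. At the low end ZDHHC1, ZDHHC14, ZDHHC19 and ZDHHC24 had sh-NC means of 1.95 to 4.33 TPM. ZDHHC15 and ZDHHC22 did not reach the mean of 1 TPM required for testing: ZDHHC15 was between 0 and 0.236 TPM and ZDHHC22 was above 0 in 1 library.

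**Figure D1:**
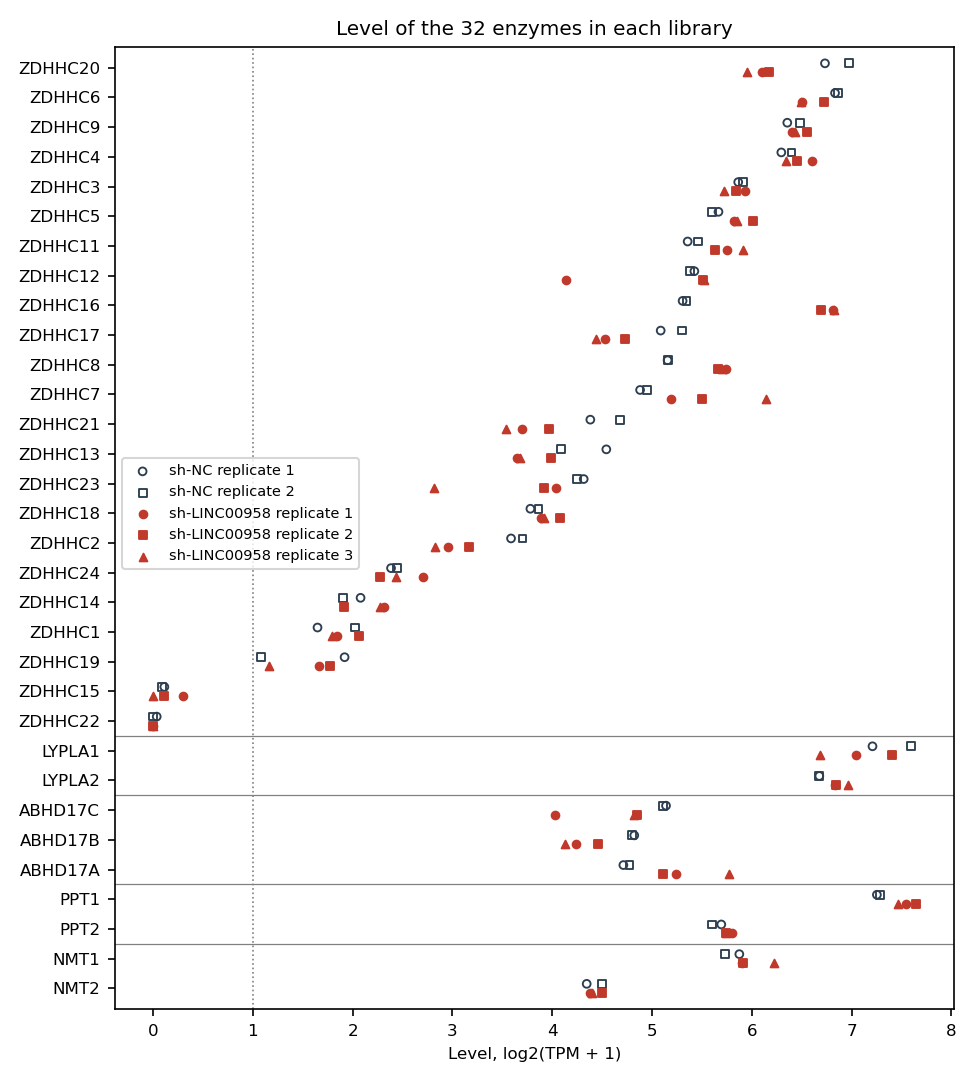
Level of each enzyme on the log2(TPM + 1) scale, 1 point per library, with open points for sh-NC and filled points for sh-LINC00958, and with horizontal lines between the role classes. The dotted line marks 1 TPM. ZDHHC16 stands at a mean of 39.1 TPM in sh-NC and has the highest mean of its family in sh-LINC00958 (108.7 TPM). ZDHHC20 has means of 115.1 and 66.7 TPM.

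Summed over the family, the transferases stood at 817, 870 and 843 TPM in sh-LINC00958 and at 798 and 841 TPM in sh-NC, ranges that overlap. The mixture differed. ZDHHC16 held 13.6, 11.8 and 13.3% of the summed transferase TPM in sh-LINC00958 and 4.83 and 4.72% in sh-NC. By mean TPM it went from rank 9 of 23 to rank 1. In sh-LINC00958 replicate 2, however, ZDHHC6 was higher (104.6 against 102.3 TPM). ZDHHC20 held 8.29, 8.18 and 7.25% against 13.2 and 14.8%, and by mean TPM went from rank 1 to rank 5. In sh-NC replicate 1 it was below ZDHHC6 (105.4 against 113.1 TPM). No group overlapped the other in the share of ZDHHC16 or in that of ZDHHC20. ZDHHC6 and ZDHHC9, the other 2 leading transferases of the control cells, had mean shares of 11.2 and 10.4% in sh-LINC00958 and 13.9 and 10.3% in sh-NC.

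Of the 30 members tested, 2 rose, ZDHHC16 and ZDHHC8, and 4 fell, ZDHHC20, ZDHHC17, ZDHHC21 and ZDHHC2, at a limma adjusted p under 0.05. All 6 are palmitoyl transferases. Of all 17049 genes tested, 4.12% rose and 5.68% fell. The TPM of the 2 groups did not overlap for 20 of the 30 members, 11 of them higher and 9 lower in sh-LINC00958, and for 49.9% of all genes tested. An unadjusted p under 0.05 was reached by 15 members, 50.0% of those tested, and by 30.7% of all genes tested; nothing is read from that difference either. The median log2 fold change over the 30 was 0.05, against 0.00 over all tested genes, with 18 positive and 12 negative values.

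**Figure D2:**
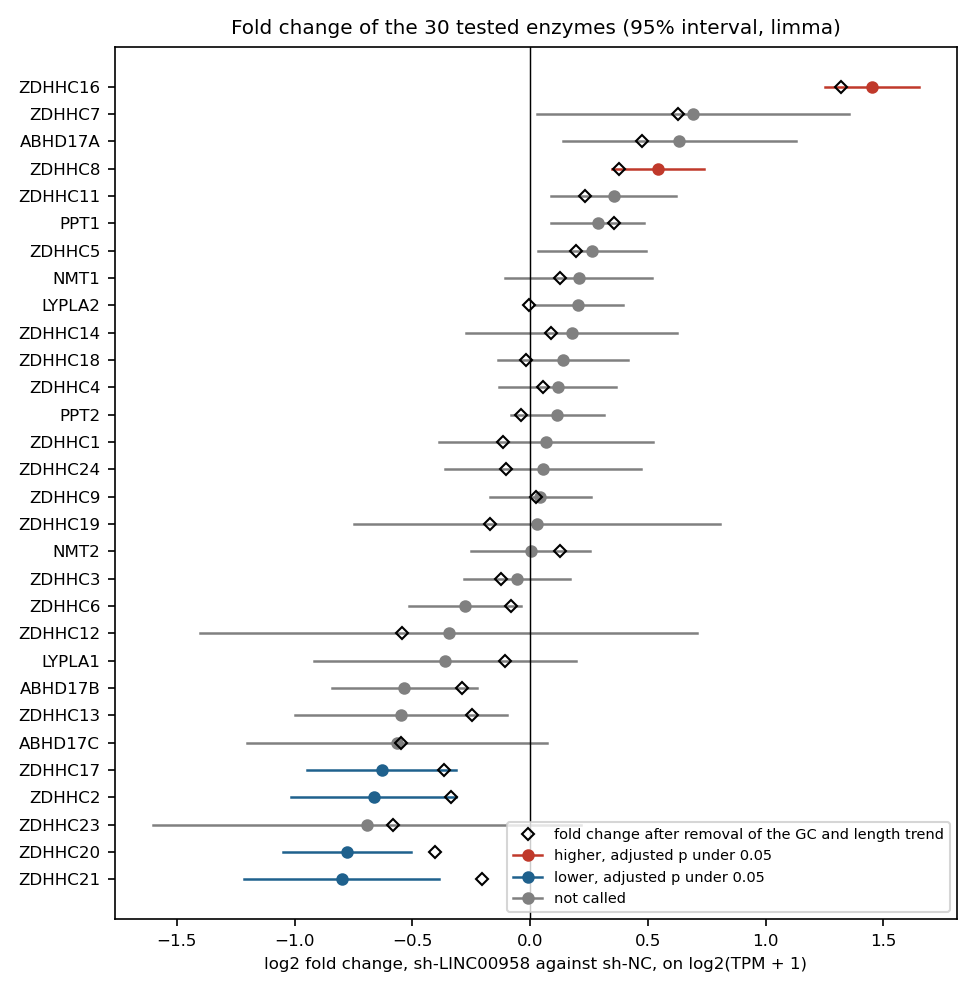
Fold change of the 30 tested enzymes, sh-LINC00958 against sh-NC, as filled points with 95% intervals from limma; open diamonds give the fold change after the trend with transcript GC content and length was removed from every library. ZDHHC16 stands apart at 1.45, and its diamond stays at 1.32, whereas ZDHHC21 moves from -0.80 to -0.20.

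ZDHHC16 encodes a transferase of the endoplasmic reticulum. Its level was 111.5, 102.3 and 112.4 TPM in sh-LINC00958 and 38.6 and 39.7 TPM in sh-NC. The lowest silenced library was thus well above the highest control, and the spread inside each group (SD 5.56 TPM, n = 3, and 0.765 TPM, n = 2) was small beside the gap. The mean rose to 278% of control, which is 1.45 on the log2 scale (SE 0.0815, 95% interval 1.25 to 1.65, limma adjusted p = 0.00422). With 1 library left out at a time the fold change stayed between 1.43 and 1.49, and only the fit without sh-NC replicate 2 missed the threshold (limma adjusted p = 0.0512).

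The start of ZDHHC16 lies 114 bp from that of EXOSC1, a subunit of the RNA exosome that is transcribed in the opposite direction, and this neighbour was looked up after the ZDHHC16 values were seen. EXOSC1 was at 87.4, 90.0 and 77.0 TPM in sh-LINC00958 and at 89.1 and 78.2 TPM in sh-NC. Those groups overlap, and differ by 0.02 on the log2 scale (SE 0.106, 95% interval -0.24 to 0.28, limma adjusted p = 0.917). The 113 bases between the annotated exons of both genes, chr10:97446018-97446130 read on the strand of ZDHHC16, are shown as the stretch they share (RefSeq promoter table, GRCh38.p14). Capitals mark CCAAT on either strand and CACGTG.
ZDHHC16-EXOSC1 gap: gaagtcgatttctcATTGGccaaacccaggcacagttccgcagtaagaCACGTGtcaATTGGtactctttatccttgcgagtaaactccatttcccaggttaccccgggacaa
The gap holds CCAAT at 2 places, both read on the other strand, and CACGTG at 1. In the 250 bases before the start, on both strands, CCAAT is found in 32.0% and CACGTG in 6.35% of all 35116 RefSeq promoter windows. Of the 32 enzymes 25 have such windows, 30 in all, and windows of the same gene can overlap, as in ZDHHC23. CCAAT occurs in 7 of those 30 (23.3%) and CACGTG in 3 (10.0%). GGGCGG, the GC box, occurs in 20 of the 30, against 42.6% of all windows, while TATAAA occurs in 0 of 30, against 10.7%. A match to these letters describes the sequence and is no evidence of a bound factor.

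ZDHHC8, a transferase studied mainly in neurons, was the other member that rose. It stood at 52.4, 49.5 and 51.0 TPM in sh-LINC00958 and at 34.7 TPM in both sh-NC libraries. The groups did not overlap, and the 2 controls differed by far less than the silenced libraries did. The log2 fold change was 0.54 (SE 0.0793, limma adjusted p = 0.0213), to 147% of control. Its size held between 0.52 and 0.56 when any 1 library was left out, but the limma adjusted p of ZDHHC8 was then 0.0918 without sh-LINC00958 replicate 1, 0.0606 without replicate 3, 0.12 without sh-NC replicate 1 and 0.131 without replicate 2.

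The 4 transferases that fell differ in known substrates. ZDHHC20, which acts at the plasma membrane and is known to palmitoylate the EGF receptor, was at 67.8, 71.2 and 61.1 TPM in sh-LINC00958 and at 105.4 and 124.7 TPM in sh-NC. Its drop in mean TPM was the largest among the 32 members, to 58.0% of control, a log2 fold change of -0.78 (SE 0.111, limma adjusted p = 0.0205). ZDHHC17, the huntingtin-interacting transferase with ankyrin repeats, was at 22.1, 25.6 and 20.7 TPM against 33.0 and 38.5 TPM, a log2 fold change of -0.63 (SE 0.129, limma adjusted p = 0.0388). In both genes all silenced libraries lay below both controls.

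ZDHHC21, a small transferase known from endothelial and skin biology, was at 11.9, 14.6 and 10.6 TPM in sh-LINC00958 and at 19.9 and 24.7 TPM in sh-NC. Its log2 fold change was -0.80 (SE 0.169, limma adjusted p = 0.0418), the lowest of any tested member. ZDHHC2, known for acting on tetraspanins and on neuronal scaffold proteins, was the least abundant of those that changed, at 6.76, 7.95 and 6.10 TPM against 11.0 and 12.0 TPM. It fell by 0.66 on the log2 scale (SE 0.143, limma adjusted p = 0.0438). Among the silenced libraries replicate 2 was the highest for each of these 4 transferases, and no group overlapped the other.

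The 4 falls kept their direction whichever library was left out, but each was past the threshold in 1 of those 5 fits, the one without sh-LINC00958 replicate 2. In the other 4 fits the limma adjusted p ran from 0.0561 (without sh-LINC00958 replicate 3) to 0.126 (without sh-NC replicate 2) for ZDHHC20 and from 0.0913 to 0.192 for ZDHHC17. It ran from 0.0919 to 0.2 for ZDHHC21 and from 0.0948 to 0.202 for ZDHHC2, and for all 4 genes the lowest and highest values came from the same 2 fits. Without sh-LINC00958 replicate 2, members that rose numbered 2 and members that fell 6, ABHD17B (limma adjusted p = 0.0279) and ZDHHC6 (0.0373) being added. Without sh-LINC00958 replicate 1 or 3 or sh-NC replicate 1 there were 1 rise and 0 falls, and without sh-NC replicate 2 there were 0 of either.

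**Figure D3:**
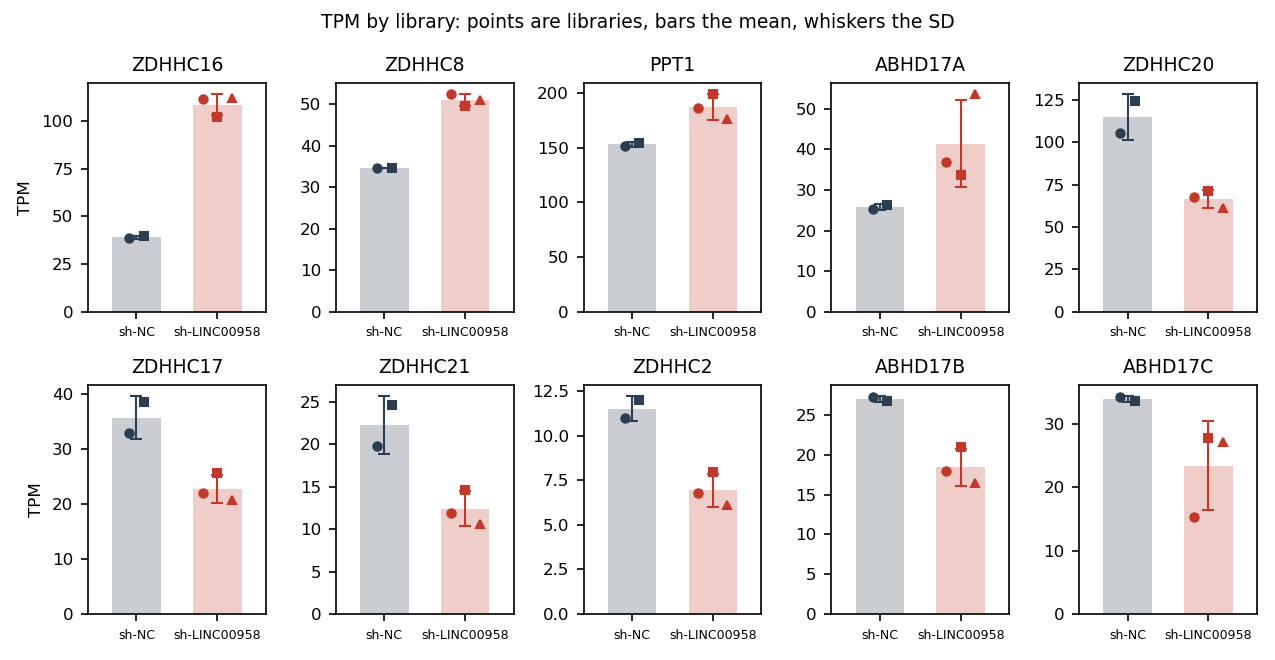
TPM of 10 enzymes in each library: points are libraries (circle, square and triangle for replicates 1, 2 and 3), bars are group means and whiskers the SD (n = 2 for sh-NC, n = 3 for sh-LINC00958). ZDHHC16 and ZDHHC8 show tight groups far apart, while ABHD17A and ABHD17C each have 1 silenced library away from the other 2.

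Base composition went with the direction of change. Over all tested genes with an annotation, the lowest of 4 equal bins of transcript GC content (23.1 to 43.0%) had a median log2 fold change of -0.29, with 43 genes higher and 670 lower. The highest bin (56.4 to 86.4%) had a median of 0.18, with 361 higher and 31 lower. GC content and exon length together went with 22.0% of the variance of the fold changes. All 4 transferases that fell, at 33.9 to 40.8% GC, are in the lowest bin, and the 2 that rose, ZDHHC16 at 55.2% and ZDHHC8 at 65.5%, are in the upper 2. Across the 30 tested members, which share the same libraries, GC content and log2 fold change had a Pearson r of 0.66, given as a description.

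After the GC and length trend was removed from each library, ZDHHC16 kept 91.1% of its fold change (1.32, limma adjusted p = 0.0036) and ZDHHC8 kept 69.8% (0.38, limma adjusted p = 0.0376). The falls kept between 25.5 and 57.8%, and none of the 4 passed the threshold: ZDHHC20 was at -0.40 (adjusted p = 0.0575), ZDHHC17 at -0.36 (0.0781), ZDHHC2 at -0.34 (0.116) and ZDHHC21 at -0.20 (0.313). PPT1, with 45.7% GC and a positive fold change, moved the other way, from 0.29 to 0.36, and then passed (limma adjusted p = 0.0301). The members that rose thus became 3 and those that fell 0, where 414 and 443 genes of the whole table rose and fell in that fit. What gave the libraries their trend with GC content was not tested.

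**Figure D4:**
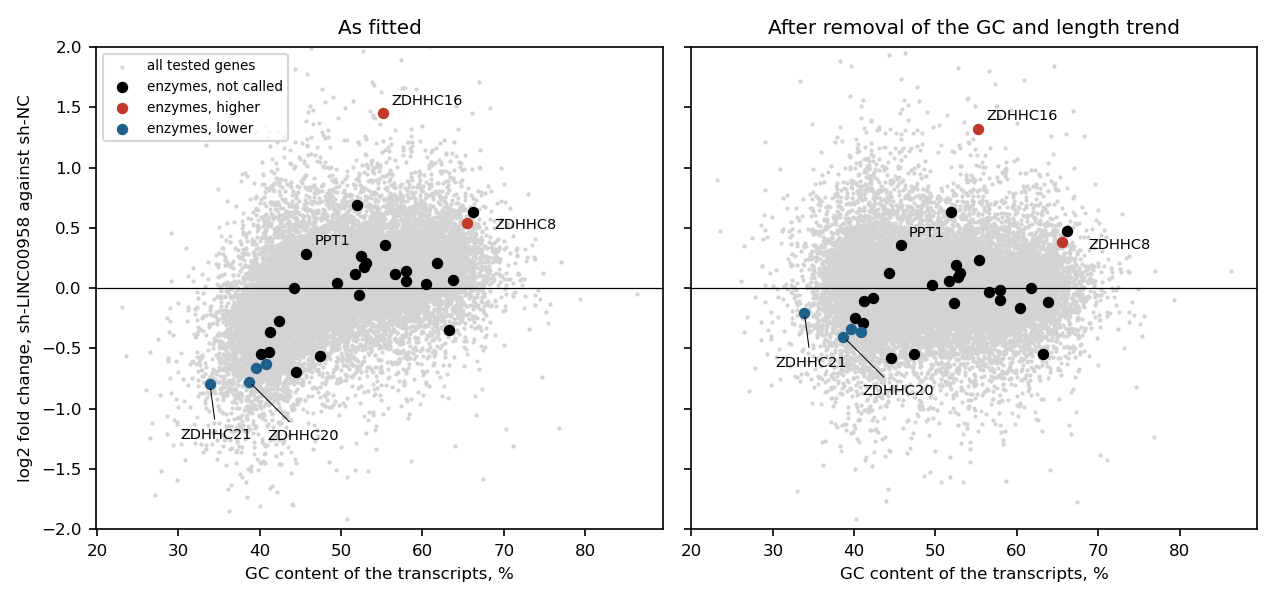
Log2 fold change against transcript GC content, as fitted (left) and after the trend of each library with GC content and length was removed (right), for the 16999 tested genes with both values in grey and the enzymes in colour; 27 and 24 genes lie outside the range of -2 to 2 on the left and right. The grey cloud slopes upward on the left, and ZDHHC16 is the highest of the enzymes in both panels, at 1.45 and 1.32.

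**Figure D5:**
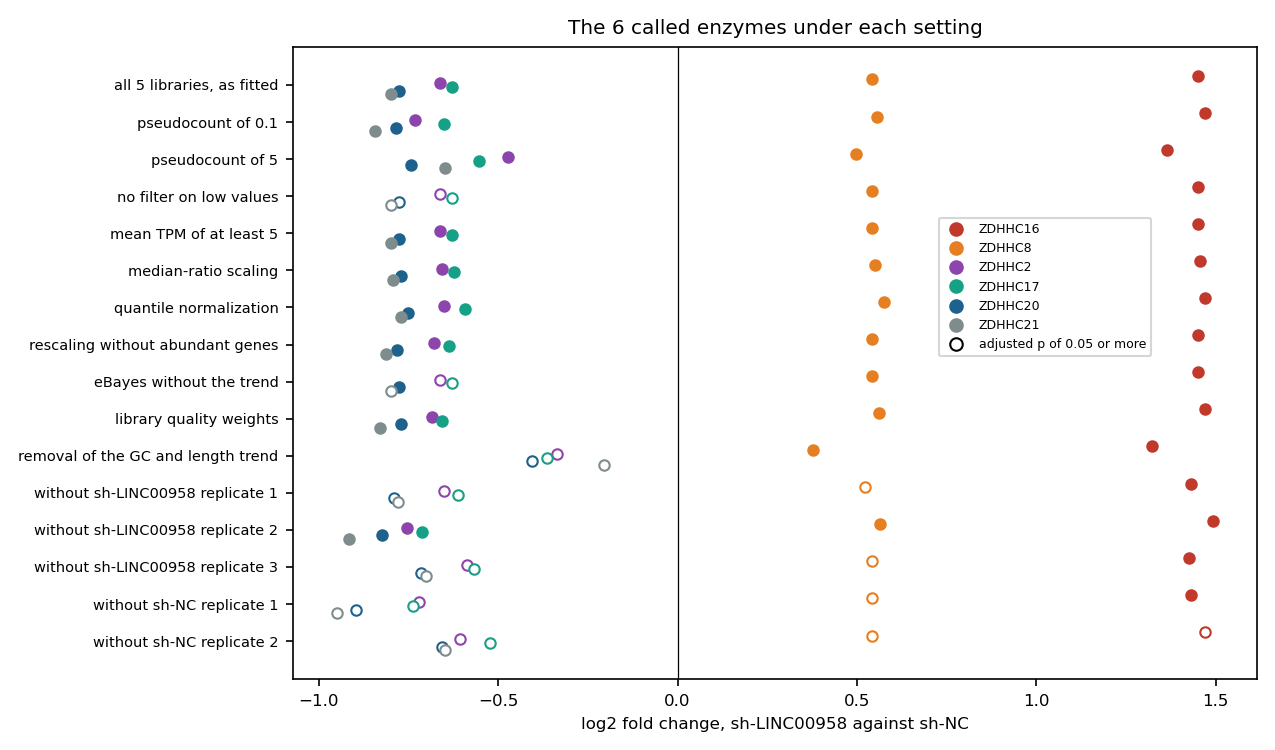
Log2 fold change of the 6 transferases that rose or fell under the settings on the vertical axis, which leave out the fits with a replicate block; filled points have a limma adjusted p under 0.05. In the settings plotted ZDHHC16 lies between 1.32 and 1.49, and the falls move toward 0 when the GC and length trend is removed.

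Among the transferases that did not pass, ZDHHC6 and ZDHHC9 had the highest means in sh-NC. ZDHHC6, an endoplasmic reticulum enzyme that works with the selenoprotein SELENOK, was at 89.6, 104.6 and 89.2 TPM in sh-LINC00958 and at 113.1 and 115.5 TPM in sh-NC. All silenced libraries were lower, with a log2 fold change of -0.28 (SE 0.0965, limma adjusted p = 0.122). ZDHHC9, the RAS transferase that needs GOLGA7 as its partner, was at 83.9, 92.9 and 85.4 TPM against 80.9 and 88.5 TPM, overlapping ranges that differ by 0.04 on the log2 scale (95% interval -0.17 to 0.26, adjusted p = 0.766 by limma). ZDHHC11 was at 52.7, 48.7 and 59.0 TPM against 40.0 and 43.0 TPM (log2 fold change 0.35, SE 0.108, limma adjusted p = 0.0909). It has a near-identical copy, ZDHHC11B, at means of 13.1 and 12.6 TPM, and reads that fit both could have been shared out between them.

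Some members are named here after their values were seen, because 1 library stood away from its group. ZDHHC12 was at 16.6 TPM in sh-LINC00958 replicate 1 and at 40.6 to 44.9 TPM in the other 4 libraries. Its log2 fold change of -0.35 became 0.11 without that library. ZDHHC23 was at 6.04 TPM in sh-LINC00958 replicate 3, and at 15.4 and 14.1 TPM in the other silenced libraries, below 18.9 and 18.1 TPM in sh-NC (log2 fold change -0.69, limma adjusted p = 0.261). ZDHHC7, one of the enzymes known to palmitoylate steroid hormone receptors, was at 35.4, 44.1 and 69.6 TPM against 28.5 and 30.0 TPM (log2 fold change 0.69, SE 0.27, limma adjusted p = 0.151). Its silenced libraries were all higher, and the spread among them was close to the difference of the means. The log2 fold changes of the other 9 tested transferases that did not pass ran from -0.55 in ZDHHC13 to 0.26 in ZDHHC5, with limma adjusted p from 0.11 to 0.961.

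None of the 5 cytosolic and membrane-associated depalmitoylases passed the threshold. LYPLA1, acyl protein thioesterase 1, was at 130.9, 168.1 and 101.5 TPM in sh-LINC00958 and at 147.0 and 192.8 TPM in sh-NC, ranges that overlap (-0.36 on the log2 scale, 95% interval -0.92 to 0.19, adjusted p = 0.331 by limma). LYPLA2, acyl protein thioesterase 2, was at 112.7, 113.8 and 123.6 TPM against 101.3 and 100.8 TPM (log2 fold change 0.20, SE 0.0774, limma adjusted p = 0.142). LYPLA2 did not overlap between the groups, but its fold change was 0.00 after the GC and length trend was removed.

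The ABHD17 enzymes, which take palmitate off NRAS, differed among themselves in sign. ABHD17A was at 36.9, 33.7 and 53.7 TPM in sh-LINC00958 and at 25.2 and 26.4 TPM in sh-NC (log2 fold change 0.63, SE 0.202, limma adjusted p = 0.101). ABHD17B was at 17.9, 21.0 and 16.4 TPM against 27.3 and 26.8 TPM, with a log2 fold change of -0.53 (SE 0.126) and the smallest p of any member that did not pass (limma adjusted p = 0.0531). ABHD17C was at 15.3, 27.8 and 27.2 TPM against 34.3 and 33.6 TPM (log2 fold change -0.56, SE 0.26, limma adjusted p = 0.203). No group overlapped the other in any of the 3, yet their summed TPM of 70.1, 82.5 and 97.3 surrounded the 86.8 of each control. ABHD17A was the least abundant of the 3 in sh-NC and the most abundant in sh-LINC00958. Processed copies of ABHD17A are listed at means of up to 4.01 TPM, and reads could be shared with them.

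PPT1 and PPT2 work in lysosomes, where PPT1 clears palmitate from proteins being degraded, and its loss causes a neuronal storage disease. PPT1 was at 186.4, 199.3 and 175.9 TPM in sh-LINC00958 and at 151.6 and 154.6 TPM in sh-NC. All silenced libraries were higher, with a log2 fold change of 0.29 (SE 0.0799, limma adjusted p = 0.0762). By mean TPM it was the most abundant of the 32 enzymes in sh-LINC00958. PPT1 shares 1189 exon bases with CAP1 on the opposite strand, and the strand setting of the counting is not given in the sources used here, so reads from CAP1 (209 to 266 TPM) may be included. PPT2 was at 55.0, 52.7 and 52.4 TPM against 50.8 and 47.6 TPM (log2 fold change 0.12, SE 0.0806, limma adjusted p = 0.382). It shares 49.3% of its exon bases with the read-through gene PPT2-EGFL8.

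Neither myristoyl transferase passed. NMT1, the more abundant, was at 58.7, 59.1 and 73.8 TPM in sh-LINC00958 and at 57.7 and 52.3 TPM in sh-NC (0.21 on the log2 scale, 95% interval -0.11 to 0.52, adjusted p = 0.325 by limma). The groups did not overlap, but only replicate 3 stood well above the controls. NMT2 was at 19.7, 21.5 and 20.1 TPM against 19.3 and 21.6 TPM, fully overlapping, with a log2 fold change of 0.00 and a 95% interval of -0.25 to 0.25 (limma adjusted p = 0.991).

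Acyl chains reach these enzymes as acyl-CoA. Of 14 tested genes for acyl-CoA supply and binding, 1 rose and 4 fell, where 4.12% and 5.68% of all tested genes did, and their median log2 fold change was -0.13. ACLY, which makes cytosolic acetyl-CoA for fatty acid synthesis, was at 137.2, 132.9 and 139.0 TPM in sh-LINC00958 and at 179.3 and 186.9 TPM in sh-NC (log2 fold change -0.42, SE 0.0688, limma adjusted p = 0.0261). The acyl-CoA synthetases ACSL3 (-0.47) and ACSBG1 (-1.03) and the Golgi acyl-CoA binding protein ACBD3 (-0.62) also fell, and the fatty acid transporter SLC27A4 (0.45) rose. The most abundant of the list, the carriers DBI (352.8 and 393.2 TPM) and FABP5 (264.6 and 285.1 TPM), did not pass. After the GC and length trend was removed, ACLY and ACSBG1 were the 2 falls left in the list.

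None of the 5 tested partners of the enzymes passed, and none had an unadjusted p under 0.05. GOLGA7, the partner of ZDHHC9, falls outside the rule given below for naming genes of the lists. It was at 113.8, 90.3 and 40.8 TPM in sh-LINC00958 and at 111.3 and 130.5 TPM in sh-NC (log2 fold change -0.68, limma adjusted p = 0.321). Its lowest value was that of sh-LINC00958 replicate 3. The methionine aminopeptidases METAP1 and METAP2, which prepare substrates for NMT1 and NMT2, had log2 fold changes of -0.28 and -0.38 (limma adjusted p = 0.167 and 0.271). Of 3 other tested acyl thioesterases and hydrolases none passed, although 2 had an unadjusted p under 0.05, as did 30.7% of all tested genes. ABHD12 was at -0.06 and ABHD10 at -0.52 on the log2 scale, and ABHD13, named after its value was seen, at -0.74 (limma adjusted p = 0.0605) and at -0.14 after the GC and length trend was removed. PORCN, the O-acyltransferase of Wnt proteins and the 1 gene of its list that could be tested, was at 0.10, and MBOAT4 was near 0 in both groups.

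Prenylation, the other lipid modification of RAS proteins, had 1 rise and 1 fall among 11 tested genes, beside 4.12% and 5.68% of the whole table. ICMT, which methylates the prenylated cysteine at the end of RAS, was at 101.4, 104.5 and 97.0 TPM in sh-LINC00958 and at 59.8 and 63.2 TPM in sh-NC. Its silenced libraries were all far above the controls, with a log2 fold change of 0.71 (SE 0.0778, limma adjusted p = 0.0122), and 0.67 after the GC and length trend was removed (0.00939). ZMPSTE24, a protease that cleaves prenylated proteins ahead of that step, was at 55.2, 69.4 and 52.8 TPM against 93.3 and 94.5 TPM (log2 fold change -0.67, limma adjusted p = 0.0363), and did not pass after that removal (-0.43, limma adjusted p = 0.0558). RABGGTB, the beta subunit of the Rab prenyl transferase and the other most abundant gene of the list, was at -0.08. With a library left out, ICMT was past the threshold in 2 of 5 fits and ZMPSTE24 in 1.

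Transcripts of substrates moved both ways. Of 30 tested genes for palmitoylated proteins, 5 rose and 2 fell, against the same 4.12% and 5.68% of all tested genes, with a median log2 fold change of 0.05. NRAS, which needs palmitate to reach the plasma membrane, was at 27.8, 33.7 and 24.1 TPM in sh-LINC00958 and at 94.5 and 97.6 TPM in sh-NC, far apart, with a log2 fold change of -1.73 (SE 0.147, limma adjusted p = 0.00762). NRAS has 38.4% GC, and its fold change was -1.35 after the trend was removed (limma adjusted p = 0.00594). It was past the threshold in 3 of the 5 fits with 1 library left out, and the highest limma adjusted p among them was 0.0719. The G protein subunit GNA13 (-0.63) also fell, and the cell surface proteins CD44 (0.82) and CD151 (0.35), the G protein subunit GNA12 (0.56), the transcription factor TEAD4 (0.50) and the GTPase RHOB (0.47) rose. GNAS and CANX, the most abundant of the list by mean TPM over the 5 libraries, were at -0.19 and -0.22 and did not pass.

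Of 39 tested genes for myristoylated proteins, 1 rose and 1 fell (4.12% and 5.68% over all tested genes), with a median log2 fold change of -0.02. GNAI2, a G protein subunit, rose by 0.40 (139.0 to 184.0 TPM in the means, limma adjusted p = 0.0469), and FRS2, an adaptor of FGF receptors, fell by 0.78 (44.8 to 25.4 TPM, limma adjusted p = 0.0321). The most abundant, ARF1 and MARCKSL1, were at -0.03 and -0.27 and did not pass. Over the 7 lists of related genes, 8 rose and 8 fell, and 0 to 6 rose and 0 to 18 fell when any 1 library was left out. The genes that passed with all 5 libraries did so in 0 (RHOB, CD151 and CD44) to 3 (NRAS) of those 5 fits. After the GC and length trend was removed 1 rose, ICMT, and 4 fell: ACLY, ACSBG1, NRAS and MARCKSL1. All of these counts are for lists chosen with earlier results of these libraries known.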

How the data were processed

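The authors deposited 1 table of TPM values, 58174 genes by 5 libraries. Per the submitters' processing notes, FastQC 0.11.2, Trimmomatic 0.36, HISAT2 2.0 and StringTie 1.3.3b were used with GRCh38. Neither the annotation release nor a strand setting is named there. TPM divides by gene length and scales each library to 1 total, so values are relative and depth, and with it any counting interval, is unknown. Genes were placed in GENCODE 29 by gene ID (57836 found), which also gave GC content and exon length.

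Differences were fitted with limma 3.58.1 (R 4.3.3) on log2(TPM + 1), which understates the change of low genes. The fit covered all 17049 genes whose TPM averaged 1 or more over the libraries, used eBayes with a mean-variance trend, was two-sided, and took Benjamini-Hochberg adjustment over all of them with a threshold of 0.05. The procedure was tested on simulated data with independent noise in each library. That cannot show how it behaves if the replicates are technical repeats. A fit that leaves 1 sh-NC library assumes that it varies as the sh-LINC00958 libraries do. Members and lists were chosen with earlier results of these data known. Named with values in every library are members past the threshold, the 3 most abundant of each role class in sh-NC, and the 3 with the smallest p among the rest. Named from the lists are genes past the threshold and the 2 of each list with the highest mean over the libraries. GOLGA7 and ABHD13 are named outside that rule. Alternatives were other pseudocounts (0.1 and 5), filters and scalings, no trend, library weights, removal of the GC and length trend (spline of 5 degrees of freedom), a replicate block and leaving out each library.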

Additional observations from a re-analysis of the deposited data

How the results depend on the processing

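No enzyme that rose or fell in the comparison of all 5 libraries changed sign under any of the alternatives tried, while 10 enzymes that did not pass (ZDHHC1, ZDHHC9, ZDHHC12, ZDHHC18, ZDHHC19, ZDHHC24, LYPLA1, LYPLA2, PPT2 and NMT2) had fold changes of both signs over the alternatives. Counts are given as rises and falls, for the enzymes (2 and 4), the whole table (702 and 969) and the related lists (8 and 8). With no filter on low values they were 2 and 0, 207 and 269, and 1 and 1. With eBayes without the trend they were 2 and 1, 371 and 518, and 2 and 2. Library quality weights gave 4 and 6, 1428 and 1851, and 14 and 20. Removal of the GC and length trend gave 3 and 0, 414 and 443, and 1 and 4. Leaving out each library in turn gave 0 to 2 and 0 to 6 for the enzymes, 10 to 905 and 6 to 1491 for the table, and 0 to 6 and 0 to 18 for the lists. Both pseudocounts, the stricter filter and the 3 scalings left all of these counts within 1.5 times; the causes of the larger shifts were not tested. The replicate numbers 1 and 2 occur in both groups, and the labels do not say what a number shares. Deviations of same-numbered libraries from their group means had correlations of 0.0013 and 0.0497. With 2 sh-NC libraries, whose deviations mirror each other, both values rest on 1 contrast of controls. They cannot decide whether same-numbered libraries shared a culture or a preparation. With the replicate number as a block, which leaves 1 residual degree of freedom, the counts were 0 and 0, 0 and 2, and 0 and 0. With the replicate block and the GC and length removal together all were 0, and the fold change of ZDHHC16 was at its lowest, 1.295. Depth is unknown, so no limit from counting can be given for low genes such as ZDHHC19.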
